A study of Mus musculus with 18 samples.

Results

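The 10 genes encoding subunits of Polycomb repressive complex 2 (PRC2), *Ezh2*, *Ezh1*, *Eed*, *Suz12*, *Jarid2*, *Mtf2*, *Phf19*, *Aebp2*, *Rbbp4* and *Rbbp7*, were taken by symbol from the 24346 genes of the RNA-seq files, and all 10 were present and passed the filter on low values in each line. The lines measured were 2 hybrid female mouse embryonic stem (ES) cell lines, so that reads with SNPs can be assigned to an allele. *Tsix*-stop cells (strain-129 × *Mus castaneus*, *cast*) carry a transcriptional stop in *Tsix* on the strain-129 X chromosome in every group, controls included, and had 2 wt, 2 *Kdm6a* KO and 1 CRISPR control library at D0, as ES cells, and the same at D15, as embryoid bodies (EBs). E8 cells (BL6 × *cast*) had 2 wt and 2 *Kdm6a* KO libraries at D7 and at D15 by their labels, whereas the methods describe E8 libraries at D0, D2 and D4, so the E8 days are uncertain. According to the methods, the *Tsix*-stop KO cells carry a homozygous deletion from exon 2 to exon 4 of *Kdm6a*, in clones that the labels do not tie to libraries. The CRISPR control is described as a clone that went through the CRISPR/Cas9 treatment but was not edited. Also by the methods, the E8 KO is a single clone without the *Kdm6a* promoter, and ES cells were kept on feeder cells. The deposited files of both CRISPR control libraries carry KO names, so the identity of these libraries, which was taken from the labels, is uncertain. The labels do not say that replicates are separate cultures, so p-values measure the spread between these libraries, which may be technical.

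PRC2 deposits methyl groups on lysine 27 of histone H3 (H3K27me3), the mark that KDM6A removes. EZH2, or its less active paralog EZH1, is the methyltransferase, and it works only together with EED, which reads the mark, and SUZ12, which holds the complex together, while the histone-binding proteins RBBP4 and RBBP7 are shared with other chromatin complexes. MTF2 and PHF19 are DNA- and chromatin-binding Polycomb-like proteins of the PRC2.1 form, whereas JARID2 and AEBP2 define the PRC2.2 form, and ES cells and the inactive X chromosome are classical settings for the complex.

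The promoters of 4 members are shown because the catalytic pair, *Ezh2* and *Ezh1*, moved in opposite directions between D0 and D15 in *Tsix*-stop wt cells, and *Mtf2* and *Phf19*, the Polycomb-like pair, were both higher in *Tsix*-stop KO than in wt at D15 and both lower in E8 KO. Each is the RefSeq promoter of the build GRCm38.p6, the build of mm10, from 250 bases before to 50 bases after the transcription start, written 5′ to 3′ on the strand of the gene, and all 10 members matched the table by symbol. Capitals mark any of 4 forms of the site bound by the cell cycle factors E2F, TTTCCCGC, TTTGGCGC, TTTCGCGC and TTTGCCGC, searched on both strands. The *Ezh2* window is chr6:47594981-47595280 (minus strand), the *Ezh1* window chr11:101226414-101226713 (minus strand), the *Mtf2* window chr5:108065424-108065723 (plus strand) and the *Phf19* window chr2:34913927-34914226 (minus strand).
*Ezh2*: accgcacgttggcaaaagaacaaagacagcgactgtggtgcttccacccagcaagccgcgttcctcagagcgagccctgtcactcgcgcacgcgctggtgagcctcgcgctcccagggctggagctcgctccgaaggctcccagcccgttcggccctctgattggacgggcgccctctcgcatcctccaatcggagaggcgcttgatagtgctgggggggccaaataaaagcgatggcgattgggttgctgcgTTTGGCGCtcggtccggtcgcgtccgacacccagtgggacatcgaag
*Ezh1*: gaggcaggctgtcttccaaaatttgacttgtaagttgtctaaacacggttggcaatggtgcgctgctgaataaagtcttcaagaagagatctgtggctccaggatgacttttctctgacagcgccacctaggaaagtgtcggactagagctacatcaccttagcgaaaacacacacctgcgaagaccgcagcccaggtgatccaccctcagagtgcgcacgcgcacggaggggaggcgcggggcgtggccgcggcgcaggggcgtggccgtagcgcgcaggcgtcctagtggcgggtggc
*Mtf2*: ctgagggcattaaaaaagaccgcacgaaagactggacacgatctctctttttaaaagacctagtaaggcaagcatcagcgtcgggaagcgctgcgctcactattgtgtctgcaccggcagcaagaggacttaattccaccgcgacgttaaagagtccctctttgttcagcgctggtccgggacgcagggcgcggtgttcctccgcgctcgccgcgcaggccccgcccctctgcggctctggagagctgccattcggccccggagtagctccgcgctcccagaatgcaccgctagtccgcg
*Phf19*: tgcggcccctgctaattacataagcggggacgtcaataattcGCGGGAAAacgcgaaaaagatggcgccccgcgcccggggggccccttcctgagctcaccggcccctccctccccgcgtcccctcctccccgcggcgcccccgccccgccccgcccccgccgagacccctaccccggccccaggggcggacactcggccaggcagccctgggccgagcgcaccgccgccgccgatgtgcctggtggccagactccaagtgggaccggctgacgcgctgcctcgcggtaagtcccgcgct
Of the 10 members, 3 held a match, *Ezh2*, *Suz12* and *Phf19*, against 2.26% of the 32851 promoters in the table. In *Ezh2* the match began 4 bases after the start, and in *Phf19* it lay on the opposite strand 208 bases before the start. A match is only a run of letters, and its absence from *Ezh1* and *Mtf2* says nothing beyond these windows.

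*Kdm6a*, the targeted gene, had 139 and 209 CPM (counts scaled to the size of the library) in *Tsix*-stop wt, 130 and 48.5 CPM in KO replicates 1 and 2 and 128 CPM in the CRISPR control at D0. At D15 it had 139 and 109 CPM in wt, 93.5 and 28.03 CPM in KO and 93.5 CPM in the CRISPR control. Counts cover the whole gene, of which the deletion takes only a part, so these levels do not test the deletion. In E8 KO *Kdm6a* was between 0.0058 and 0.032 TPM, against 46.7 to 47.8 TPM in wt. *Tsix*-stop libraries held 51091152 to 68796179 counts, and E8 values were deposited as TPM, so the depth behind them is unknown. In *Tsix*-stop at D0, 10 ES cell markers such as *Pou5f1* summed to 6871 to 7826 CPM. Fibroblast markers, 8 genes such as *Col1a1*, summed to 5658 and 6148 CPM in *Tsix*-stop wt at D15 but to 415 to 559 CPM in KO and 211 CPM in the CRISPR control, with 7 of 8 lower in KO by at least 2-fold, as 14.9% of all genes changed in either direction. In E8 wt, fibroblast markers summed to 21.7 to 34.0 TPM, 6 neural markers to 216 to 269 TPM (131 to 161 TPM in KO) and 10 ES cell markers to 13832 to 18239 TPM. In E8 KO the ES cell markers summed to 4886 to 8390 TPM, with 10 of 10 lower on each day. There, 84.8% of all tested genes passed in either direction at D7 and 78.3% at D15. Fibroblast markers in E8 KO summed to 49.2 to 58.6 TPM, and 7 visceral endoderm markers to 225 to 1048 TPM against 6.47 to 10.6 TPM in wt. In *Tsix*-stop at D15 these 7 markers summed to 348 and 414 CPM in wt, 31.6 and 13.9 CPM in KO and 12.6 CPM in the CRISPR control. In bulk libraries, fewer cells of a type and less RNA per cell cannot be told apart, and the part of such differences in the results on PRC2 genes was not tested.

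*Ezh2* was lower in *Tsix*-stop KO than in wt at D0. It had 217 and 190 CPM in wt, 127 and 133 CPM in KO and 287 CPM in the CRISPR control. The KO libraries lay below the controls, with a log2 fold change of −0.65 (standard error 0.12, FDR 0.011 by edgeR). At D15 *Ezh2* had 113 and 106 CPM in wt, 118 and 138 CPM in KO and 208 CPM in the CRISPR control. The change from D0 to D15 was −0.87 on the log2 scale in wt (FDR 0.00023 by edgeR) and −0.01 in KO (standard error 0.12, FDR 0.96). The KO effect therefore differed between the days, with an interaction of 0.86 on the log2 scale (FDR 0.0098 by edgeR). The CRISPR control had the highest *Ezh2* level on each day, and with it counted as wt the D0 difference was −0.83 with an FDR of 0.32 and the D15 difference was −0.16.

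**Figure D1:**
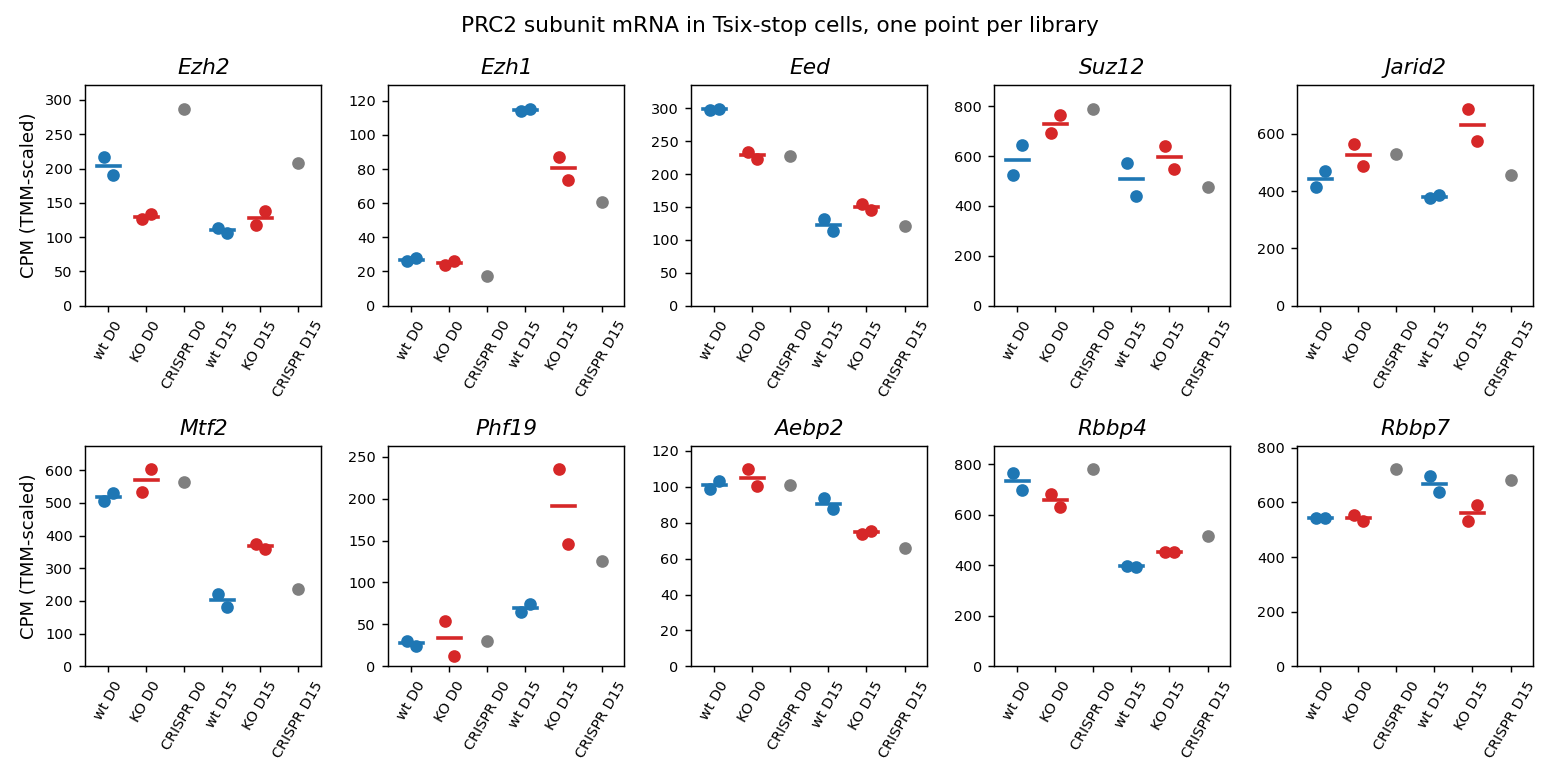
Levels of the 10 PRC2 subunit genes in *Tsix*-stop cells as CPM scaled by TMM, with 1 point per library and a bar at the mean of each pair (wt blue, KO red, CRISPR control grey, 1 library per day). *Ezh2* is at 127 and 133 CPM in KO at D0 against 217 and 190 CPM in wt, and *Ezh1* is several times higher at D15 than at D0 in every group.

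Allele-specific reads showed that *Ezh2* RNA in *Tsix*-stop KO cells came from the strain-129 allele. *Ezh2* lies on chromosome 6 (chr6:47530139-47595341, minus strand, GRCm38), and the KO libraries held 0 and 1 *cast* reads of 1635 and 1869 *Ezh2* SNP reads at D0 and 0 and 1 of 1369 and 1589 at D15. The strain-129 share was thus 100% in KO replicate 1 on each day, with lower 95% Wilson bounds of 99.8% at D0 and 99.7% at D15, and 99.9% in KO replicate 2. In wt the strain-129 share was 54.7% (95% interval 52.9 to 56.6%) and 55.4% (53.5 to 57.3%) at D0 and 70.6% (68.3 to 72.7%) and 69.8% (67.2 to 72.3%) at D15. The CRISPR control had 48.4% (46.9 to 49.8%) at D0 and 50.6% (48.7 to 52.5%) at D15. The KO libraries do not overlap the others, and the intervals take account of counting error alone, as no source describes molecular identifiers. In a fit of strain-129 against *cast* reads, *Ezh2* passed between KO and wt at D0 (FDR 2.7e-16 by edgeR) and at D15 (FDR 3.5e-14), and its share rose in wt from D0 to D15 by 0.94 on the log2 scale of the odds (FDR 8.8e-07).

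With the CPM of *Ezh2* split by these shares, the *cast* part was lower in KO than in wt at D0 and the strain-129 part was not. The strain-129 part was 119 and 105 CPM in wt, 127 and 133 CPM in KO and 139 CPM in the CRISPR control at D0, so the KO libraries were above wt there. The *cast* part was 98.4 and 84.9 CPM in wt, 148 CPM in the CRISPR control, and 0 and 0.071 CPM in KO. At D15 the strain-129 part was 79.8 and 74.2 CPM in wt against 118 and 138 CPM in KO and 105 CPM in the CRISPR control. The *cast* part at D15 was 33.3 and 32.1 CPM in wt, 102.8 CPM in the CRISPR control, and 0 and 0.087 CPM in KO. In wt each part was thus lower at D15 than at D0, and the *cast* part by more. Genes around *Ezh2* also had a higher strain-129 share in wt at D15 than at D0, as given below.

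The neighbours of *Ezh2* had the same allelic pattern. Over the 28 genes within 5 Mb that averaged 100 or more SNP reads, the median strain-129 share was 100% in all 4 KO libraries, 56.8% and 58.8% in wt at D0, 65.2% and 65.5% in wt at D15, and 49.5% and 48.5% in the CRISPR control. Going outward from *Ezh2*, genes whose KO reads were at least 95% strain-129 reads reached from *Cntnap2* to *Prickle2*, which is 47.6 Mb of chromosome 6 (chr6:45059357-92706155), and 138 of the 144 genes of this stretch with enough SNP reads were at that level, against 6 of the other 289 of the chromosome. The next gene beyond *Prickle2* was *Adamts9*, with 44.8% strain-129 reads in KO. This stretch was chosen by the KO shares, so they are a description. In wt the stretch was also above the rest of the chromosome, with medians of 58.7% and 61.4% against 50.4% and 49.99% outside it in the D0 libraries, and of 68.0% and 68.8% against 43.7% and 44.0% in the D15 libraries. In the CRISPR control the medians were 52.2% and 52.0% inside and 52.4% and 52.7% outside. *Aebp2* lies on the same chromosome beyond the stretch (chr6:140622663-140678472), and its strain-129 share was 40.1% to 48.5% in KO and 37.1% to 42.3% in wt.

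**Figure D2:**
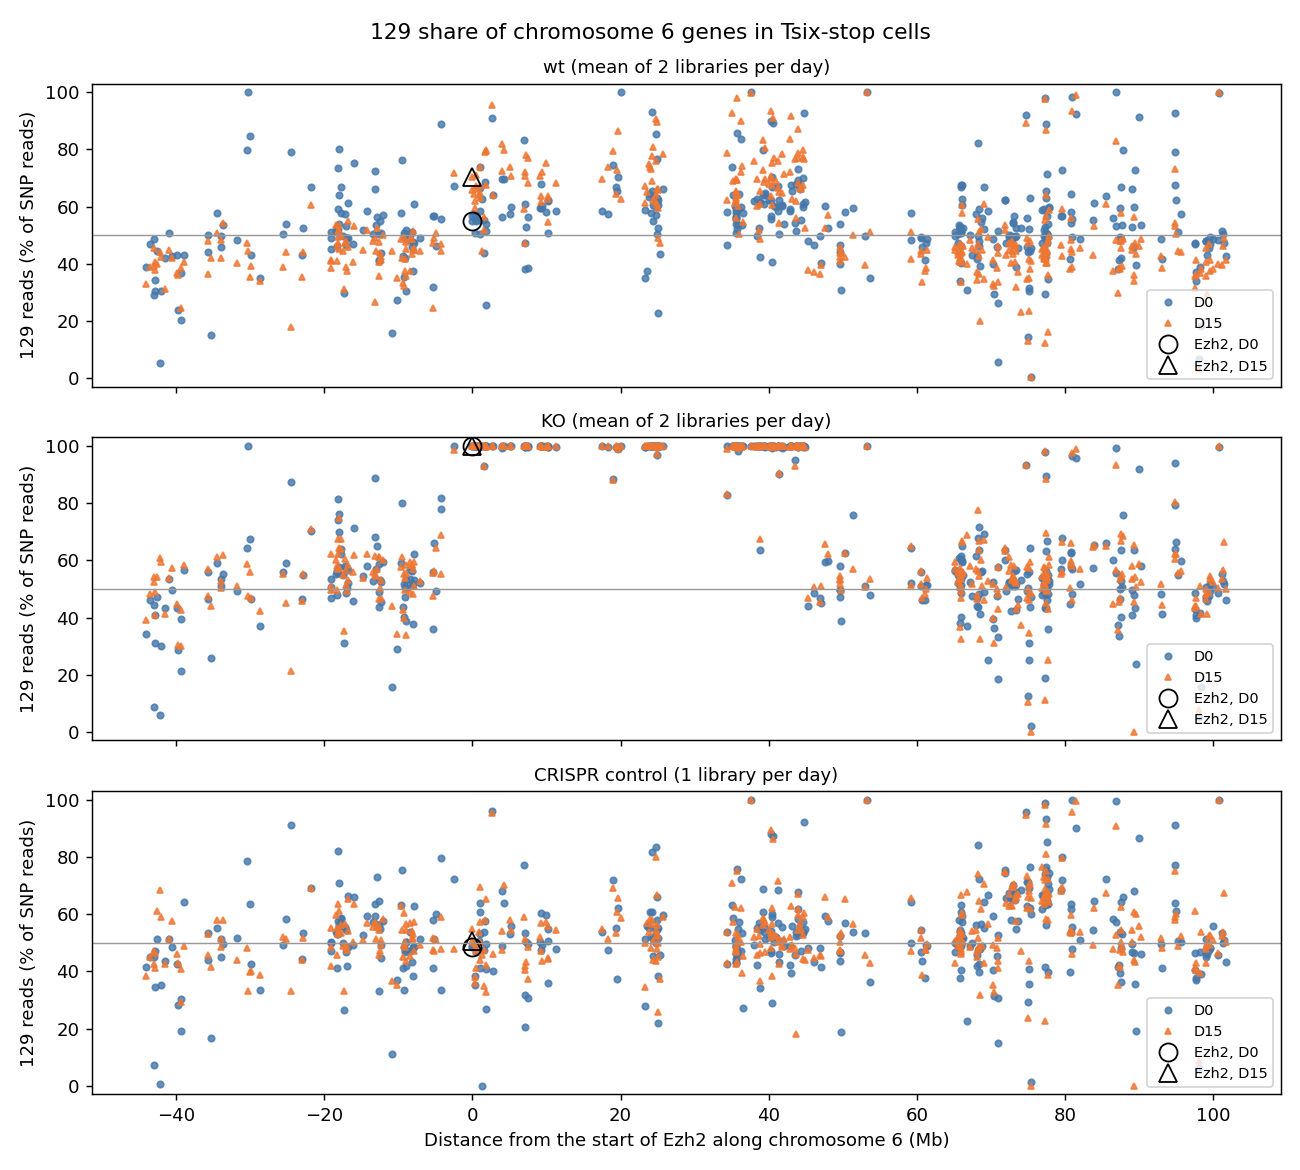
Share of strain-129 reads (percent of SNP reads, vertical axis) for genes of chromosome 6 that averaged 100 or more SNP reads, against the distance from *Ezh2* in Mb, as means of 2 wt or 2 KO libraries per day and as the single CRISPR control library, with circles for D0 and triangles for D15 and *Ezh2* outlined in black. In KO a 47.6 Mb stretch with *Ezh2* near its left end sits at 100%, in wt it lies above the flanks, and in the CRISPR control it lies level with them.

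The level of *Ezh2* moved with this stretch at D0 and apart from it at D15. Over the 220 other tested genes of the stretch, the median log2 fold change between KO and wt was −0.60 at D0, near the −0.65 of *Ezh2*, against 0.03 for the 391 tested genes elsewhere on chromosome 6 and −0.01 for all genes. Of these 220 genes, 99 (45%) were lower and 3 (1.36%) higher in KO at an FDR of at most 0.1, against 11.4% and 9.11% of all genes. At D15 the median of the stretch was −0.34, with 90 (40.9%) lower and 20 (9.09%) higher, against 24.0% and 20.6% of all genes. *Ezh2* was at 0.21 at D15 with an FDR of 0.20. The 5 genes whose CPM followed *Ezh2* most closely over the 10 libraries were *Tax1bp1*, *Mpp6*, *Hmces*, *Cct7* and *Tprkb*, with Pearson r from 0.96 to 0.98, and all 5 lie in the stretch. The allele count per cell was not measured, so the part of the missing *cast* reads in the level of *Ezh2* was not tested. In E8, where allelic TPM was rescaled to the median autosomal gene, *Ezh2* had a BL6 share between 47.4% and 53.3% in all 8 libraries, KO included, and its level in KO differed from wt by −0.10 at D7 (FDR 0.019 by limma) and 0.09 at D15 (FDR 0.024) on the log2 scale.

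*Ezh1* rose strongly with differentiation in *Tsix*-stop cells and was lower in KO than in wt at D15 in each line. It had 25.96 and 28.1 CPM in wt, 23.8 and 26.1 CPM in KO and 17.6 CPM in the CRISPR control at D0. At D15 it had 114 and 116 CPM in wt, 87.0 and 73.7 CPM in KO and 60.7 CPM in the CRISPR control. The rise was 2.11 on the log2 scale in wt (FDR 4.6e-06 by edgeR) and 1.71 in KO (FDR 2.2e-05), so *Ezh1* is the member with the largest change in wt. The difference between KO and wt at D15 was −0.52 (standard error 0.12, FDR 0.013), but the CRISPR control lay below the KO libraries, and with it counted as wt the log2 fold change was −0.27 with an FDR of 0.55. In E8, *Ezh1* had 22.0 and 21.4 TPM in wt against 15.5 and 15.4 TPM in KO at D7, and 28.7 and 31.3 TPM in wt against 19.4 TPM in each KO library at D15. These give log2 fold changes of −0.46 (FDR 4.1e-05 by limma) and −0.60 (FDR 1.5e-05). The 5 genes most like *Ezh1* over the 10 *Tsix*-stop libraries were *Zkscan17*, *Ctc1*, *Col3a1*, *Ctsa* and *Ctxn1* (Pearson r of 0.99), and *Col3a1* is a collagen gene of the fibroblast marker list.

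The balance of the methyltransferases therefore moved towards *Ezh1*. On the TPM scale, which corrects for transcript length, *Ezh1* made up 9.68% and 11.7% of *Ezh1* plus *Ezh2* in *Tsix*-stop wt at D0 and 47.5% and 49.4% at D15. In KO the share went from 14.4% and 15.0% to 39.9% and 32.4%, while the CRISPR control went from 5.21% to 20.7%. KO thus lay above wt at D0 and below it at D15, with the CRISPR control lowest on each day. In E8 the share was 15.7% and 15.3% in wt and 12.1% and 12.4% in KO at D7, and 21.4% and 22.9% in wt and 14.9% and 14.6% in KO at D15. In *Tsix*-stop the pair summed to 117 and 111 TPM in wt libraries at D0, with 79.6 and 85.7 TPM for KO and 160 TPM for the CRISPR control. The sums at D15 were 125 and 118 TPM in wt libraries against 109 and 117 TPM in KO libraries. These ratios are descriptions without a test.

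**Figure D3:**
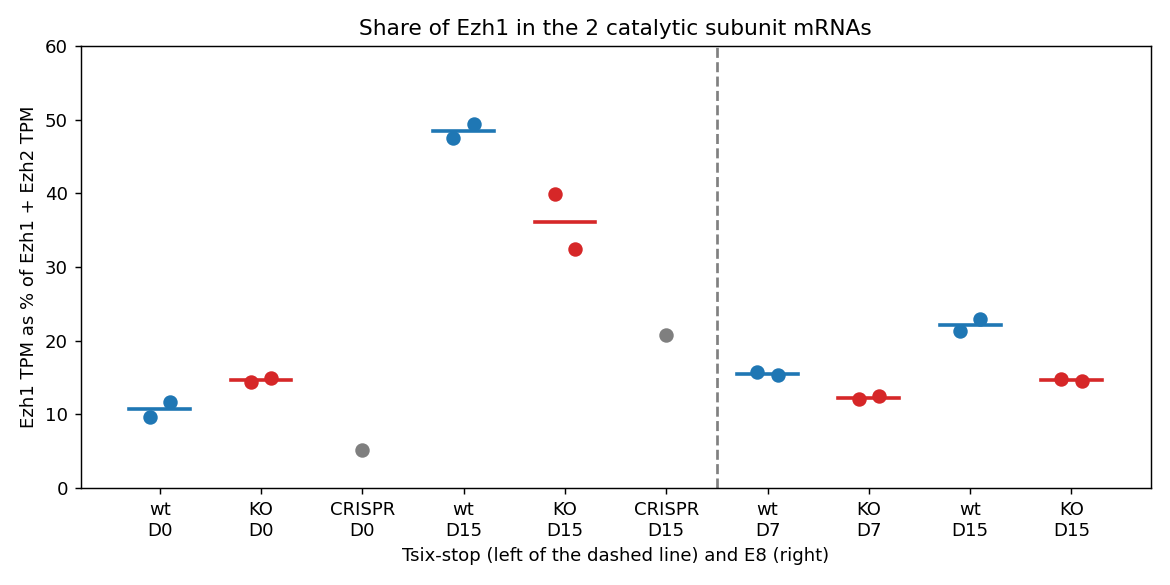
*Ezh1* TPM as a percentage of *Ezh1* plus *Ezh2* TPM, with 1 point per library and a bar at the mean of each pair, for *Tsix*-stop at D0 and D15 (left of the dashed line) and E8 at D7 and D15 (right). The wt libraries of *Tsix*-stop go from 9.68% and 11.7% to 47.5% and 49.4%, whereas E8 wt goes from 15.3% and 15.7% to 21.4% and 22.9%.

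Among the other core subunits, *Eed*, which reads H3K27me3 and activates the enzyme, fell with differentiation in *Tsix*-stop. The wt libraries held 297 and 300 CPM at D0 against 233 and 224 CPM for KO, and 132 and 114 CPM at D15 against 155 and 145 CPM for KO, with 228 and then 122 CPM in the CRISPR control. KO was lower at D0 (−0.39, FDR 0.053 by edgeR) and higher at D15 (0.28, FDR 0.084), and the interaction was 0.67 (FDR 0.019). The CRISPR control lay with KO at D0 and between the wt libraries at D15, and with it counted as wt the FDR was 0.48 at D0 and 0.17 at D15. The level of *Suz12*, the scaffold of the complex, passed no *Tsix*-stop test. It was 522 and 645 CPM in wt, 691 and 766 CPM in KO and 790 CPM in the CRISPR control at D0, where wt and KO do not overlap. At D15 the wt libraries had 573 and 441 CPM, the KO libraries 641 and 548 CPM and the CRISPR control 476 CPM, and the groups overlap. In E8 *Suz12* was lower in KO, with log2 fold changes of −0.42 at D7 (FDR 2.1e-05 by limma) and −0.18 at D15 (FDR 0.0027). *Eed* was lower in E8 KO as well, at −0.17 and −0.25 (FDR 0.0022 and 0.00035).

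*Mtf2* and *Phf19*, the PRC2.1 subunits, had their largest KO differences at D15 in *Tsix*-stop, and the direction was opposite in E8. At D0 *Mtf2* had 505 and 530 CPM in wt against 534 and 602 CPM in KO, at D15 the same groups had 222 and 181 CPM against 375 and 359 CPM, and the CRISPR control had 563 and then 236 CPM. Its change with differentiation was −1.34 in wt and −0.62 in KO, and KO was higher at D15 by 0.85 (standard error 0.13, FDR 0.0022 by edgeR), with an interaction of 0.72 (FDR 0.024). With the CRISPR control counted as wt the D15 difference was 0.78 (FDR 0.018). *Phf19* had 30.6 and 24.5 CPM in wt, 54.2 and 12.8 CPM in KO and 29.7 CPM in the CRISPR control at D0. At D15 it had 64.8 and 74.4 CPM in wt, 235 and 146 CPM in KO and 125 CPM in the CRISPR control. The KO libraries lay above all others at D15, but replicates of KO differed widely on each day, and the log2 fold change of 1.45 had a standard error of 0.53 (FDR 0.065 by edgeR, and 0.16 with the CRISPR control counted as wt). At D0 the log2 fold change of *Phf19* was 0.28, and it was −1.11 without KO replicate 1.

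In E8 the same pair was lower in KO on each day. *Mtf2* had 123 and 139 TPM in wt against 79.7 and 76.3 TPM in KO at D7, and 138 and 132 TPM against 114 and 118 TPM at D15. *Phf19* had 50.7 and 48.0 TPM in wt against 25.1 and 24.3 TPM in KO at D7, and 31.3 and 33.2 TPM against 18.3 and 19.1 TPM at D15. The groups do not overlap on either day, with log2 fold changes of −0.73 and −0.22 for *Mtf2* (FDR 1.4e-05 and 0.012 by limma) and −0.97 and −0.75 for *Phf19* (FDR 7.9e-07 and 4.9e-06). The difference between the lines was not tested, since one was deposited as counts and the other as TPM.

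*Jarid2*, the PRC2.2 subunit that helps to bring the complex to chromatin, was also higher in *Tsix*-stop KO at D15 and lower in E8 KO, but its level did not pass between D0 and D15 in *Tsix*-stop wt (−0.19, FDR 0.24 by edgeR). Its wt libraries had 413 and 470 CPM at D0 against 566 and 488 CPM for KO, and 376 and 386 CPM at D15 against 688 and 575 CPM for KO, while the CRISPR control had 531 and then 455 CPM. KO was higher at D15 by 0.72 (standard error 0.14, FDR 0.0054 by edgeR), and by 0.64 with the CRISPR control counted as wt (FDR 0.033). In E8 it had 226 and 219 TPM in wt against 115 and 113 TPM in KO at D7, and 201 and 210 TPM against 154 and 157 TPM at D15. The log2 fold changes there were −0.96 (FDR 1.9e-07 by limma) and −0.40 (FDR 3e-05), and the interaction was 0.56 (FDR 8.1e-05). *Aebp2*, the zinc finger subunit of PRC2.2, was lower in KO at D15 in each line. It had 93.9 and 87.4 CPM in wt, 73.7 and 75.6 CPM in KO and 65.8 CPM in the CRISPR control in *Tsix*-stop (−0.29, FDR 0.060 by edgeR, and 0.54 with the CRISPR control counted as wt). In E8 it had 28.6 and 29.4 TPM in wt against 20.9 and 21.9 TPM in KO (−0.42, FDR 3.1e-05 by limma).

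**Figure D4:**
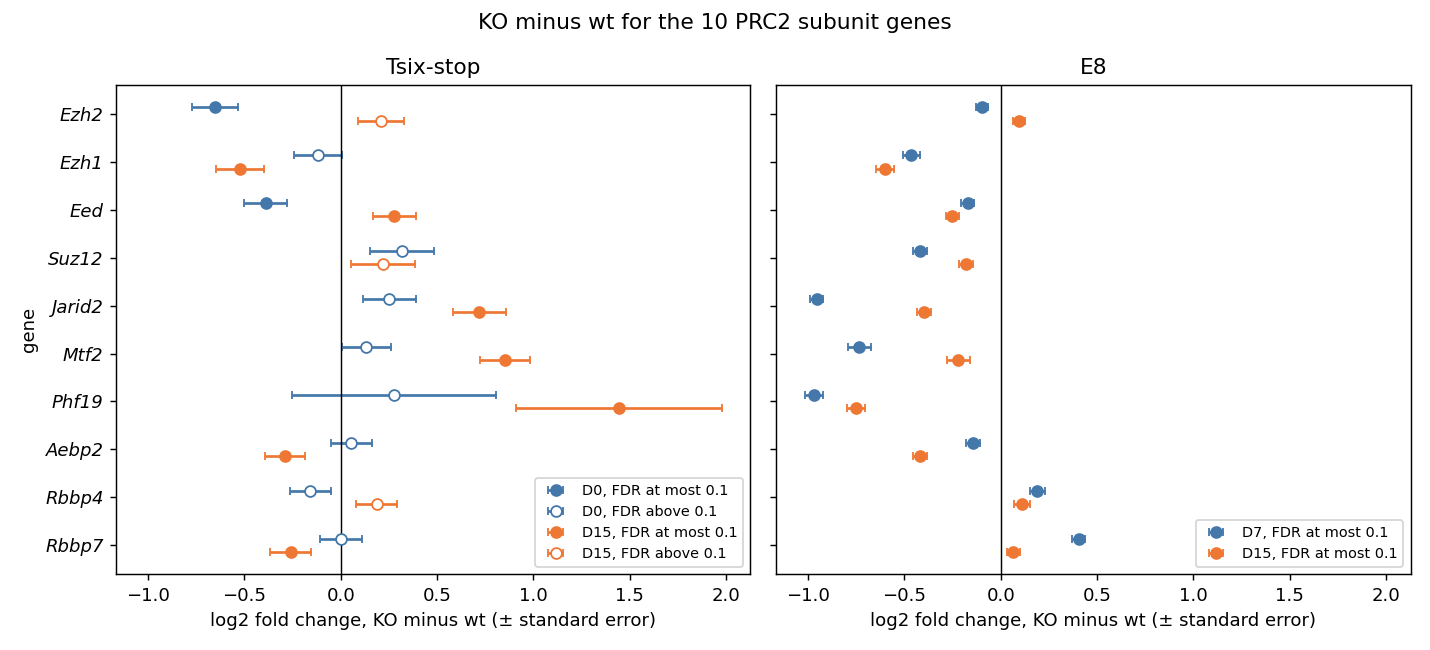
Log2 fold change of KO against wt (horizontal axis) for the 10 genes in *Tsix*-stop (D0 blue, D15 orange) and E8 (D7 blue, D15 orange), from edgeR on counts and from limma on log2(TPM + 1), with bars of 1 standard error and filled points at an FDR of at most 0.1. At D15 *Jarid2*, *Mtf2* and *Phf19* are at 0.72, 0.85 and 1.45 in *Tsix*-stop and at −0.40, −0.22 and −0.75 in E8, while *Ezh1* is below 0 in each line.

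*Rbbp4* and *Rbbp7*, the histone chaperones shared with other complexes, did not pass between KO and wt at D0 in *Tsix*-stop. *Rbbp4* had 767 and 700 CPM in wt against 685 and 633 CPM in KO at D0, and 399 and 393 CPM against 453 and 455 CPM at D15. KO and wt differed by −0.16 at D0 (FDR 0.37) and 0.19 at D15 (FDR 0.20 by edgeR). Its change with differentiation was −0.87 in wt (FDR 0.00013 by edgeR) and −0.52 in KO (FDR 0.0032). *Rbbp7*, which is X-linked (chrX:162760402-162779092), had 543 and 541 CPM in wt against 554 and 534 CPM in KO at D0, and 696 and 636 CPM against 531 and 591 CPM at D15. In the CRISPR control it had 721 CPM at D0, above wt and KO, and 683 CPM at D15. It rose in wt by 0.32 (FDR 0.026 by edgeR), and the difference between KO and wt at D15 was −0.26 (FDR 0.093). This FDR rose above 0.1 in 7 of the 8 fits with a library left out. In E8 *Rbbp7* was higher in KO at D7, with 559 and 553 TPM against 420 and 419 TPM (0.40, FDR 1.2e-05 by limma), and at D15 the value of 0.066 turned to −0.023 once libraries were rescaled. *Rbbp4* and *Rbbp7* share sequence, their counts include fractions of reads, and the *Rbbp7* count on the strain-129 genome was 1.21 to 1.26 times that on the *cast* genome, so the split between them is uncertain. *Rbbp7* had only 8 to 34 SNP reads per library, under the minimum for a test of its alleles.

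The order of the members by TPM at D15 was alike at the top in all groups. By group means *Rbbp7* was highest and *Suz12* second in *Tsix*-stop wt, KO and CRISPR control and in E8 wt and KO, with 819 to 931 TPM and 334 to 451 TPM in *Tsix*-stop wt. In E8 KO *Suz12* (197 and 204 TPM) overlaps *Rbbp4* (197 and 202 TPM). *Rbbp4* (168 and 177 TPM), *Jarid2* (149 and 150 TPM), *Mtf2* (119 and 152 TPM) and *Eed* (112 and 134 TPM) followed, and of these *Jarid2*, *Mtf2* and *Eed* overlap between neighbours. *Ezh2* (59.6 and 65.9 TPM), *Ezh1* (58.1 and 59.6 TPM), *Phf19* (50.005 and 55.3 TPM) and *Aebp2* (33.2 and 37.1 TPM) were lowest, and *Ezh2* and *Ezh1* lay next to each other. Levels in *Tsix*-stop and E8 were made by different steps and are set side by side without a test.

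**Figure D5:**
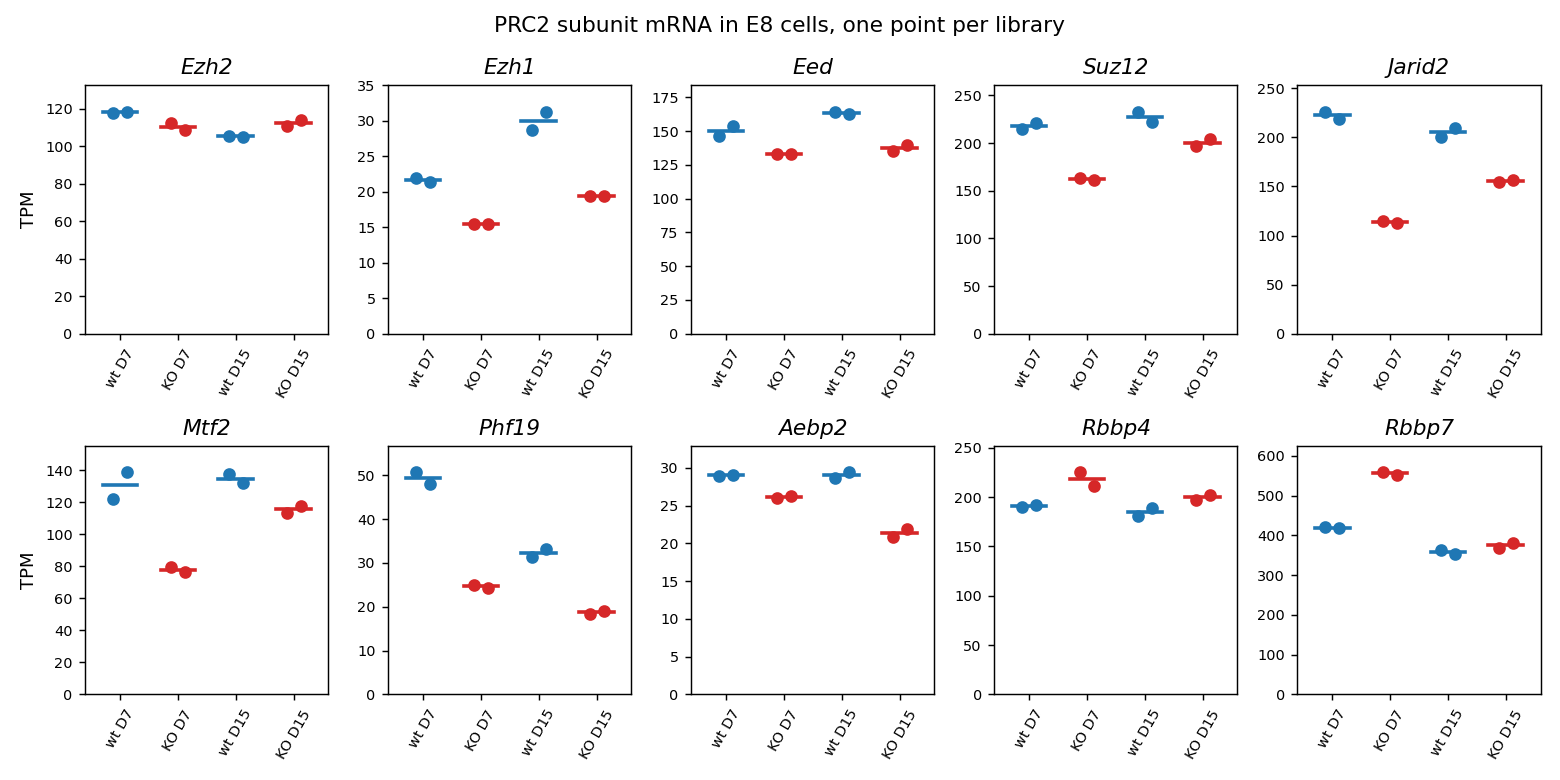
Levels of the 10 PRC2 subunit genes in E8 cells as TPM, with 1 point per library and a bar at the mean of each pair (wt blue, KO red). *Jarid2*, *Mtf2*, *Phf19*, *Suz12* and *Ezh1* are lower in KO than in wt on each day, while *Rbbp7* is higher in KO at D7 and close to wt at D15.

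Counted over the 10 members, the KO comparison at D0 in *Tsix*-stop had 0 higher and 2 lower at an FDR of at most 0.1, *Ezh2* and *Eed*, where 20.5% of the 13121 tested genes passed, and none reached 2-fold, where 8.12% of genes did. At D15, 4 were higher (*Eed*, *Jarid2*, *Mtf2* and *Phf19*) and 3 lower (*Ezh1*, *Aebp2* and *Rbbp7*), against 44.6% of genes, and *Phf19* was the only one past 2-fold, as were 14.9% of genes. The median log2 fold change of the members was 0.03 at D0 and 0.22 at D15, and that of all genes −0.01 and 0.00. With the CRISPR control counted as wt, 0 members passed at D0 and 2 at D15, *Jarid2* and *Mtf2*. Leaving out wt replicate 1 or 2 at D0 left 1 member there, and at D15 3 passed without wt replicate 2 or without KO replicate 1 and 4 without wt replicate 1. From D0 to D15, 3 members rose and 4 fell in wt, against 74.6% of genes, with 2 rising (*Ezh1* and *Phf19*) and 2 falling (*Eed* and *Mtf2*) by at least 2-fold, as 37.8% of genes changed. In KO 2 rose and 4 fell, against 64.7%, and *Ezh1* and *Phf19* passed 2-fold, against 27.6%. The interaction passed for 3 members, *Ezh2*, *Eed* and *Mtf2*, against 34.2% of genes.

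In E8 most tested genes passed the FDR. At D7 10 of 10 members passed between KO and wt, 2 higher and 8 lower, but so did 84.8% of the 12452 tested genes, and none reached 2-fold, where 17.5% of genes did. At D15 10 passed again, 3 higher and 7 lower, against 78.3%, with none past 2-fold against 10.7%. Between D7 and D15, 6 members passed in wt and 8 in KO, against 58.6% and 75.9% of genes, with none past 2-fold against 1.41% and 6.11%. The interaction passed for 7 members against 67.2%. The median of the members in KO against wt was −0.29 at D7 and −0.24 at D15, where all genes had 0.10 and 0.09, so that the shift of all genes lies opposite to the members. For the balance of strain-129 and *cast* reads, 9 members averaged 20 or more SNP reads, and *Ezh2* alone passed between KO and wt at D0, against 10.2% of 12299 genes. At D15 *Ezh2*, *Ezh1*, *Suz12* and *Jarid2* passed, against 17.9%, and in wt from D0 to D15 these and *Phf19* did, against 28.4%. In KO *Suz12* passed from D0 to D15, against 16.2%. In wt *Ezh1* went from a strain-129 share of 61.3% and 65.1% at D0 to 49.4% and 53.3% at D15 (−0.70 on the log2 scale of the odds, FDR 0.0043 by edgeR). Its 137 neighbours within 5 Mb also fell, from medians of 53.3% and 52.8% to 46.0% and 47.0%. For *Jarid2* the wt libraries went from 66.2% and 60.5% to 55.7% and 55.4% (−0.47, FDR 0.0024 by edgeR). The 34 neighbours of *Jarid2* within 5 Mb had medians of 50.6% and 49.1%, and of 48.0% and 48.3%. *Suz12* had a strain-129 share of 50.99% and 51.3% in wt at D0, falling to 45.1% and 44.2% at D15, and its 92 neighbours within 5 Mb had medians of 50.8% and 51.6%, and of 45.5% and 45.6%.

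The wider set held PRC2 accessory genes, partners of RBBP4 and RBBP7, H3K27 demethylases and H3K36 methyltransferases. The counts of each list in *Tsix*-stop are to be read against the 20.5% of all genes that passed between KO and wt at D0 and the 44.6% at D15. For E8 only named genes are given, where 84.8% of all genes passed at D7 and 78.3% at D15. Among 7 accessory genes 1 rose in *Tsix*-stop KO at D0, *Ezhip*, an inhibitor of PRC2 listed as AU022751, from 2.93 and 2.30 CPM to 6.53 and 6.24 CPM (1.28, FDR 0.0091 by edgeR), and the CRISPR control had 14.1 CPM. At D15 1 fell, *Phf1*, the third Polycomb-like gene, from 18.4 and 19.3 CPM to 7.94 and 9.86 CPM (−1.09, FDR 0.0041), with 11.7 CPM in the CRISPR control. In E8 *Ezhip* was lower in KO, at −1.75 at D7 and −1.30 at D15, and *Phf1* was higher at D7 by 1.14 (FDR 1.5e-06 by limma), so each had the opposite sign there. *Epop*, an ES cell subunit of PRC2.1 listed as E130012A19Rik, fell from 571 and 633 CPM to 100 and 129.1 CPM in *Tsix*-stop wt and from 699 and 767 to 133 and 130 CPM in KO. *Kdm6b*, the other H3K27 demethylase, was lower in *Tsix*-stop KO at D15, with 93.5 and 72.8 CPM against 180 and 191 CPM (−1.17, FDR 0.00081), and the CRISPR control had 105 CPM. In E8 KO *Kdm6b* was higher instead, by 0.84 at D7 (FDR 5.9e-06 by limma) and 0.46 at D15 (FDR 0.00025). *Nsd2*, an H3K36 methyltransferase listed as Whsc1, was higher in *Tsix*-stop KO at D0, with 149 and 156 CPM against 88.2 and 95.6 CPM in wt (0.73, FDR 0.028), but the CRISPR control was above KO at 160 CPM. At D15 its KO libraries lay on either side of wt, at 83.2 and 124 CPM against 112 and 98.2 CPM. It was also higher in E8 KO at D15 (1.09, FDR 3.7e-07 by limma). Of the 16 partners of RBBP4 and RBBP7, 0 passed at D0 and at D15 5 rose and 2 fell in *Tsix*-stop, which is near the share of all genes, with *Mta3* (0.57), *Chaf1b* (0.51) and *Mbd2* (−0.81) the furthest, while in E8 *Mbd2* was higher by 1.84 at D7.

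The members were set beside 18 proliferation genes, since several PRC2 genes are high in dividing cells. These 18 summed to 8286 and 8469 CPM in *Tsix*-stop wt and 6989 and 7962 CPM in KO at D0, with 9282 CPM in the CRISPR control, and to 4979 and 5063 CPM in wt, 5801 and 6471 CPM in KO and 5764 CPM in the CRISPR control at D15. At D15 11 of 18 were higher in KO and none lower, where 44.6% of all genes passed in either direction. At D0 2 were lower and none higher, against 20.5% of all genes. ES cell markers, at 3385 and 3809 CPM in wt against 4816 and 6227 CPM in KO at D15, were higher for 6 of 10. In E8 9 of 18 proliferation genes were lower and 2 higher in KO at D7, and 3 were lower and 7 higher at D15, fewer than the 84.8% and 78.3% of all genes that passed. The part of these genes in the results on PRC2 subunits was not tested.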

How the data were processed

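The authors sequenced polyadenylated RNA as single-end reads, and per the methods used TopHat for diploid expression and bowtie2 against pseudo-genomes made from mm10 and SNPs for allelic reads. The submitters' processing notes name Bowtie2 2.4.5 and TopHat2 2.1.1. The gene annotation and the use of strand in counting are not given in the sources used here, and *Eed*, *Mtf2*, *Rbbp4* and *Rbbp7* overlap an exon of a gene on the opposite strand. For *Tsix*-stop the authors deposited expected counts per gene without normalization, 7.10% of which were not whole, and these were rounded. Diploid levels rest on the reads counted against the strain-129 genome, as the column names give it. SNP reads numbered 9210225 to 12095548 per library. For E8 the authors deposited TPM, and 537 symbols given more than once were summed.

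Counts were tested in 1 edgeR 4.0.16 quasi-likelihood fit of the 8 wt and KO libraries over genes with at least 2.5 CPM in 2 libraries, with TMM scaling, in R 4.3.3. Log2(TPM + 1) values entered a trended fit of limma 3.58.1 over genes with at least 2.5 TPM in 2 libraries, and fold changes on that scale understate those of low genes. Allelic reads were tested in edgeR with the library as a block, over genes averaging 20 or more SNP reads. FDR is Benjamini-Hochberg over all tested genes, with 0.1 as the threshold and 2-fold for DEGs, and the fits were tested on simulated data. An exact permutation test of 2 against 2 libraries cannot give a 2-sided p below 0.333, so none is given. *Tsix*-stop TPM was computed from exon lengths of GENCODE vM21 on GRCm38 for 23976 genes. All 10 members were described in every comparison. Of the wider lists up to 3 genes per direction with the largest change were eligible to be named, and genes most like *Ezh2* and *Ezh1* were taken by Pearson r of log2 CPM. *Epop* was named after its values were seen. Members, lists and tests were chosen with earlier results of these data known. Alternatives were DESeq2 1.42.0, other filters, scalings, pseudocounts, controls, genome columns and replicate blocks, and each library left out. Cut&Run data were not analysed here. Plots were made in Python 3.11.15 using matplotlib 3.10.9.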

Additional observations from a re-analysis of the deposited data

Results flagged for a closer look

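In *Tsix*-stop, the KO effect differed between D0 and D15 for 3 members by the interaction test of edgeR at an FDR of at most 0.1. Of all tested genes, 34.2% passed this test. The interaction was 0.86 for *Ezh2*, 0.67 for *Eed* and 0.72 for *Mtf2* on the log2 scale, so KO lay further up against wt at D15 than at D0. With the CRISPR control counted as wt, *Mtf2* was the one of these 3 that still passed. In E8 the KO effect differed between D7 and D15 for 7 members by limma, as it did for 67.2% of all tested genes. It was 0.56 for *Jarid2*, 0.51 for *Mtf2*, 0.23 for *Suz12*, 0.22 for *Phf19* and 0.19 for *Ezh2*, and −0.34 for *Rbbp7* and −0.28 for *Aebp2*, and no interaction reached 1 on the log2 scale.

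For 5 members, the KO libraries at D15 lay on opposite sides of wt in the lines, without overlap between groups in either line. The share of all genes that did so was not counted, and the difference between lines was not tested. Between KO and wt at D15, 44.6% of all tested genes passed the FDR in *Tsix*-stop and 78.3% in E8, so the 5 members are a description. *Phf19* was at 1.45 in *Tsix*-stop and −0.75 in E8, *Mtf2* at 0.85 and −0.22, *Jarid2* at 0.72 and −0.40, *Eed* at 0.28 and −0.25, and *Rbbp7* at −0.26 and 0.066. The E8 value of *Rbbp7* changed sign once libraries were rescaled. The CRISPR control of *Tsix*-stop lay between KO and wt for *Phf19*, *Mtf2* and *Jarid2*.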

How the results depend on the processing

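Of the members' log2 fold changes under other settings, 762 kept direction and side of the FDR, 27 no longer passed, 10 newly passed and 9 changed sign, and with a library left out these were 997, 53, 13 and 25. With the CRISPR control counted as wt, 0 members passed between KO and wt at D0 in place of 2, 2 in place of 7 at D15, and 1 in place of 3 for the interaction, and the values became 0.062 for *Ezh1* and −0.15 for *Rbbp7* at D0, −0.16 for *Ezh2* at D15 and 0.10 for the interaction of *Suz12*. DESeq2 gave 5 members for the interaction. In a filter of 2.5 CPM in 4 libraries *Ezh2* from D0 to D15 in KO was 0.021. Rescaled E8 libraries gave −0.023 for *Rbbp7* between KO and wt at D15 and −0.01 (−0.008) for *Aebp2* from D7 to D15 in wt. For strain-129 against *cast* reads, TMM per allele gave −0.031 for *Jarid2* and −0.042 for *Phf19* between KO and wt at D0, and it and a minimum of 5 SNP reads gave 0 members from D0 to D15 in KO. On the *cast* genome the log2 ratio of *Rbbp7* to *Rbbp4* was 0.85 and 2.02 in wt and 1.02 and 1.60 in KO at D0 and D15. Further causes were not tested.

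With each library left out in turn, members passing between KO and wt numbered 1 to 2 at D0 and 3 to 7 at D15, and for the allelic balance 2 to 5 at D15 (2 without wt replicate 1) and 0 to 1 from D0 to D15 in KO. Between KO and wt at D0, *Aebp2* ranged from −0.0106 to 0.13, *Phf19* from −1.11 to 0.98 and *Rbbp7* from −0.0264 to 0.0375. From D0 to D15 in KO, *Ezh2* ranged from −0.11 to 0.10 and *Rbbp7* from −0.01 (−0.0052) to 0.13, and the interaction of *Suz12* from −0.26 to 0.0863. In E8 wt from D7 to D15, *Aebp2* ranged from −0.018 to 0.0188 and *Mtf2* from −0.042 to 0.14. For the allelic balance between KO and wt at D0, *Aebp2* ranged from −0.0691 to 0.0585, *Jarid2* from −0.15 to 0.21 and *Phf19* from −0.0892 to 0.18, and from D0 to D15 in KO *Aebp2* from −0.0755 to 0.41, *Ezh1* from −0.17 to 0.0731, *Ezh2* from −2.40 to 2.07.

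The labels do not say that a replicate number marks a shared batch or clone, and deviations of same-numbered libraries correlated from −0.15 to 0.20 in *Tsix*-stop and from −0.16 to 0.12 in E8. With the replicate block, 6 members in place of 7 passed between KO and wt at D15 in *Tsix*-stop, 9 in place of 10 in E8 at D15, and the other 8 counts did not change. In E8 the depth is unknown, and low counts limit *Rbbp7* alleles.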
